A study of Mus musculus with 12 samples.

Results

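The genes described here are 35 mouse genes of glycolysis and of the response to low oxygen, taken from the deposited count table as the rows whose Ensembl identifier carries a listed symbol in GENCODE vM21. All 35 were found among 57010 rows: 19 encode glucose and lactate transporters, glycolytic enzymes and regulators of glycolysis, and 16 belong to the hypoxia response. They were measured by RNA-seq in large peritoneal macrophages, the resident F4/80-high, MHC class II-low macrophages of the mouse peritoneum, in 4 groups of 3 libraries. The WT naive and Tim4KO naive groups came from unchallenged female wild-type mice and female mice lacking Tim4, a scavenger receptor encoded by Timd4. The WT ID8 and Tim4KO ID8 groups came from females of the same genotypes that had been injected into the peritoneum at 8 weeks of age with ID8, a mouse ovarian tumour line, here in the form that carries the fluorescent protein ZsGreen and ovalbumin. Those cells were sorted 24 h later, and only macrophages positive for ZsGreen were kept; both ID8 groups are called challenged below. The naive cells had no such selection, so challenge and selection for ZsGreen cannot be told apart. The labels do not describe the Tim4 allele further, and they do not say whether libraries of a group came from separate mice, so p-values measure the spread between these libraries.

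Glycolysis splits glucose into pyruvate in the cytosol. Glucose enters through transporters such as Slc2a1 (GLUT1), hexokinases trap it, phosphofructokinase commits it to the pathway, and lactate dehydrogenase A with the exporter Slc16a3 (MCT4) turns pyruvate into lactate and carries it out of the cell. Hypoxia-inducible factor 1, made of HIF-1 alpha (Hif1a) and ARNT, activates many of these genes together with genes for lipid storage, collagen hydroxylation and mitophagy. When oxygen is plentiful, the prolyl hydroxylases encoded by Egln genes mark HIF-1 alpha protein for destruction, so its activity is set mostly at the level of protein. In macrophages, inflammatory stimuli are also known to raise this programme.

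HIF-1 binds sequences with the core ACGTG or its variant GCGTG, so promoters of members that moved together and of members that did not are shown side by side. The stretches below come from RefSeq promoter windows of build GRCm38.p6, which reach from 250 bases before a gene's start to 50 bases after it, and each ends before the start. Capitals mark these cores, which read CACGT or, for the variant, CACGC on the other strand. CACGTG, which is also the E-box bound by other factors, holds ACGTG on both strands. The first 5 genes were called higher after challenge in both genotypes, and the last pair, Egln3 and Bnip3, were not called in either.
Slc2a1, chr4:119108669-119108728, + strand: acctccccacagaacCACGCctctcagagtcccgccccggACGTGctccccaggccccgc
Pgk1, chrX:106186935-106186988, + strand: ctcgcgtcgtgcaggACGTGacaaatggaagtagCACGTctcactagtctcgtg
Ldha, chr7:46845644-46845789, + strand: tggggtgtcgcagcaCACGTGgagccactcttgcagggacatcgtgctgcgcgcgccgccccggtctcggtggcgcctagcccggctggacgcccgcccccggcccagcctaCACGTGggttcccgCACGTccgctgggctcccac
Slc16a3, chr11:120949025-120949066, + strand: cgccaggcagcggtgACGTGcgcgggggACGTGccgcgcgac
Hilpda, chr6:29272500-29272625, + strand: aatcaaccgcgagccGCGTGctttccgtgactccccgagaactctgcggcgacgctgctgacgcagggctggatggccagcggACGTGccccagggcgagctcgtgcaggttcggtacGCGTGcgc
Egln3, chr12:54204084-54204118, - strand: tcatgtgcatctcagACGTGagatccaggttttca
Bnip3, chr7:138909522-138909638, - strand: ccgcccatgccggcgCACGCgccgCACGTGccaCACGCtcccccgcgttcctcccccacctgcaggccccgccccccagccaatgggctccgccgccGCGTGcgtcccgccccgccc

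The table held a window for 33 of the 35 members, with none for Bnip3l and Ndrg1. Either core, on either strand, lay in a window of 17 of 19 glycolysis genes, the exceptions being Gpi1 and Tpi1, and of all 14 hypoxia-response genes with a window. By gene, it lay in a window of 64.9% of 11042 tested genes with a window and of 46.7% of all 27025 genes with one. Counted per window, the share was 80.0% of 30 glycolysis windows and 83.3% of 18 hypoxia-response windows, against 43.8% of all 32851 windows and 59.1% of 14117 windows of genes that were tested here. The core alone did not separate members that moved from members that did not: Gpi1 and Tpi1 were called higher in both genotypes without it, while Hif1a, Egln1, Egln3, Pdk1, Bnip3 and Kdm3a held it and were not called. Such a match is a description of the letters and not evidence of binding.

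Library totals ran from 7358559 to 23170244 counts, and a count of 3 corresponded to 0.130 to 0.408 CPM (counts scaled to the library total). Timd4 was at 883 to 1489 CPM in WT libraries and at 1.38 to 7.71 CPM in Tim4KO libraries, as the labels have it. All 10 markers of large peritoneal macrophages were detected, with Adgre1 at 2569 to 6299 CPM and Gata6 at 120 to 194 CPM. Their sum was 52110 to 60760 CPM in naive and 25290 to 29290 CPM in challenged libraries, with the lysozyme gene Lyz2 at 40530 to 47490 CPM in naive and 10730 to 14990 CPM in challenged libraries. Other markers went the other way: Adgre1 was at 2569 to 3789 CPM in naive and 3932 to 6299 CPM in challenged libraries. Icam2, Itgam and Cd5l were also higher in every challenged library than in every naive one. The naive and challenged ranges of Gata6, Csf1r, Selp and Prg4 overlapped. Several marker sums of other cell types moved with challenge, although the B cell and the epithelial ranges overlap slightly. From naive to challenged libraries, the sum of 8 neutrophil markers went from 6.57 to 9.57 CPM to 11.6 to 31.1 CPM. Most of that sum was S100a8, at 4.40 to 7.38 CPM in naive and 9.13 to 24.8 CPM in challenged libraries. S100a9 and Retnlg reached 3.91 and 11.9 CPM in challenged libraries, while Ly6g, Mpo, Elane, Camp and Ngp were at most 0.789 CPM in any library. The sum of 6 mast cell markers went from 13.3 to 39.0 CPM to 2.30 to 9.53 CPM, and that of 6 B cell markers from 8.34 to 21.8 CPM to 3.44 to 8.52 CPM. For 8 dendritic cell and small macrophage markers the sums were 53.4 to 83.5 CPM and 14.9 to 48.0 CPM, and for 12 epithelial and tumour markers 5.74 to 25.7 CPM and 1.64 to 5.81 CPM. The part of these cells in the challenge results was not tested. The library WT ID8 3 stood apart: reads in olfactory and vomeronasal receptor genes, taken as background, came to 5.91 CPM there and to 40.4 or more CPM in every other library, up to 886 CPM in WT naive 1. These background reads came to 322 to 886 CPM in naive WT and 5.91 to 255 CPM in challenged WT libraries. In Tim4KO they came to 273 to 484.5 CPM and 40.4 to 368 CPM. In WT they thus fell with challenge, and a fit with them as a covariate cannot fully separate them from challenge. Results that rest on WT ID8 3 are given with and without it.

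After ID8 challenge, nearly the whole glycolytic route was higher in both genotypes, from the glucose transporter to the lactate exporter, while Pfkfb3 was lower. Of the 19 glycolysis genes, all of which passed the filter on low counts, 16 rose and 1 fell in WT, and 14 rose and 1 fell in Tim4KO (edgeR's quasi-likelihood test, Benjamini-Hochberg adjusted p under 0.05 over all 15943 tested genes). Among all tested genes, 31.8% were called in WT (19.5% higher, 12.3% lower) and 16.6% in Tim4KO (11.5% higher, 5.06% lower). The median log2 change of the 19 genes was 1.36 in WT and 1.19 in Tim4KO, against -0.04 and -0.05 over all tested genes. Together they took 0.442% ± 0.029 (SD, n = 3) of all counts in naive WT and 1.06% ± 0.048 in challenged WT, and 0.426% ± 0.048 in naive Tim4KO and 1.01% ± 0.065 in challenged Tim4KO. These are levels in sorted bulk cells, in which fewer cells of a type and less RNA per cell cannot be told apart.

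**Figure D1:**
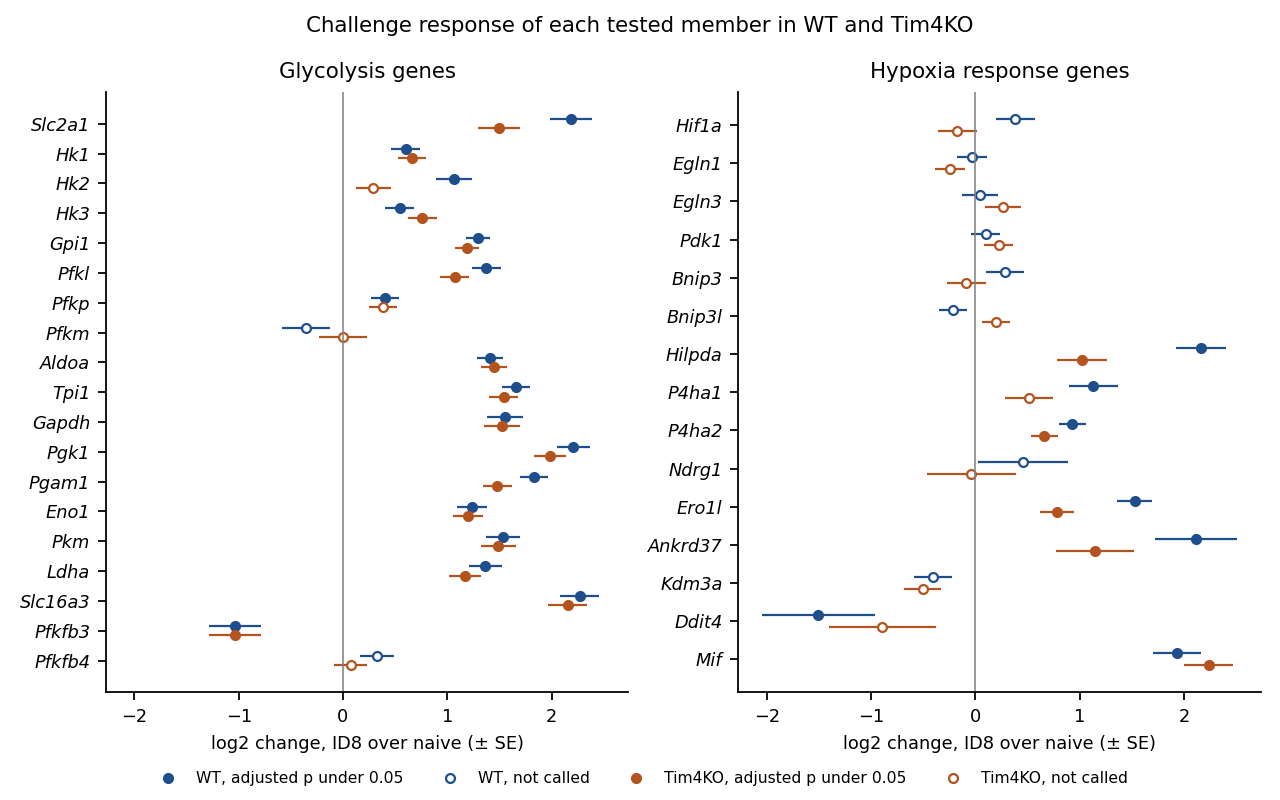
Log2 change from naive to ID8 (horizontal axis, ± SE of the edgeR fit) for the 34 tested members in WT (blue) and Tim4KO (orange), with filled points called at an adjusted p under 0.05. Most glycolysis genes lie between 1 and 2.3 in both genotypes, whereas 8 of 15 hypoxia-response genes have open points in both.

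Slc2a1 (ENSMUSG00000028645), the basal glucose transporter GLUT1, was at 7.58, 5.21 and 5.45 CPM in the naive WT libraries and at 23.5, 32.1 and 26.7 CPM in the challenged WT libraries. In Tim4KO it was at 6.64, 5.46 and 7.66 CPM before and 15.5, 21.0 and 20.0 CPM after challenge. Every challenged library lay above every naive library, and the challenged WT libraries all lay above the challenged Tim4KO libraries. The rise was 4.55-fold in WT (log2 2.19 ± 0.20, SE; adjusted p = 5.21e-06) and 2.83-fold in Tim4KO (log2 1.5 ± 0.20; adjusted p = 0.00022), both from edgeR.

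The hexokinases, which phosphorylate glucose, differed from each other. Hk2, the inducible form, was at 35.9, 31.7 and 31.4 CPM in naive WT and 74.9, 77.4 and 54.9 CPM in challenged WT. In Tim4KO it was at 52.0, 31.4 and 43.1 CPM in naive and 49.6, 53.3 and 52.6 CPM in challenged libraries. The WT groups were far apart, whereas the Tim4KO groups overlapped. Hk2 rose 2.09-fold in WT (log2 1.07 ± 0.17, adjusted p = 0.000402), and in Tim4KO the log2 change was 0.29 ± 0.17 with an adjusted p of 0.274 (edgeR). Hk1, the broadly used form, rose by log2 0.60 ± 0.14 in WT and 0.66 ± 0.14 in Tim4KO. Hk3, the form of myeloid cells, rose by 0.54 ± 0.14 and 0.76 ± 0.14. In WT the adjusted p of Hk3 was 0.0786 with upper-quartile scaling, and with the background reads as a covariate it was 0.0547 for Hk3 and 0.136 for Hk1. Fitted on the WT libraries alone, the adjusted p was 0.0571 for Hk1 and 0.0585 for Hk3.

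In upper glycolysis, Gpi1, Pfkl, Aldoa and Tpi1 rose in both genotypes, by log2 1.30 to 1.66 in WT and 1.07 to 1.54 in Tim4KO. Aldoa, the aldolase that cleaves fructose 1,6-bisphosphate, went from 408, 403 and 391 CPM to 980, 1085 and 1133 CPM in WT and from 419, 344 and 321 CPM to 943, 1050 and 963 CPM in Tim4KO. All challenged libraries were above all naive libraries for this gene, by 2.66-fold in WT (adjusted p = 3.43e-06) and 2.73-fold in Tim4KO (adjusted p = 6.56e-06). The 3 phosphofructokinases did not move as a family. Pfkl, the liver-type subunit, rose 2.60-fold in WT and 2.11-fold in Tim4KO. Pfkp, the platelet-type subunit, had smaller values, log2 0.40 ± 0.13 in WT (adjusted p = 0.0301) and 0.38 ± 0.13 in Tim4KO (adjusted p = 0.0593). That WT call was lost in 4 of 12 fits that each left out a library and in 6 of the other 9 settings. Pfkm, the muscle-type subunit, was not called in either genotype, at 9.56 ± 0.90 CPM in naive WT and 7.46 ± 1.17 CPM in challenged WT.

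All 5 genes of lower glycolysis, which yields ATP and pyruvate, rose in both genotypes. Pgk1, phosphoglycerate kinase, was at 77.0, 74.7 and 59.0 CPM in naive WT and 273, 370 and 331 CPM in challenged WT. It was at 71.7, 54.9 and 58.9 CPM in naive Tim4KO and 249, 264 and 221 CPM in challenged Tim4KO. Naive and challenged libraries did not overlap, with rises of 4.63-fold (adjusted p = 6.44e-07) and 3.96-fold (adjusted p = 2.96e-06) in edgeR. Pgam1, phosphoglycerate mutase, rose 3.56-fold in WT and 2.79-fold in Tim4KO. Gapdh rose 2.93-fold and 2.87-fold, and Pkm, the pyruvate kinase of most tissues, 2.90-fold and 2.81-fold. For Gapdh, often used as an unchanging reference, levels were 813 ± 85.7 CPM in naive WT and 2384 ± 210 CPM in challenged WT. Eno1, enolase, rose 2.36-fold and 2.29-fold, with the reservation that the near-identical gene Eno1b may share its reads: it was at 67.0 and 83.6 CPM in naive and challenged WT (adjusted p = 0.431) and rose from 51.5 to 113.9 CPM in Tim4KO (adjusted p = 0.0313).

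Lactate formation and export rose with them. Ldha was at 546, 527 and 448 CPM in naive WT, 1241, 1535 and 1140 CPM in challenged WT, 566, 412 and 408 CPM in naive Tim4KO and 1036, 1061 and 1016 CPM in challenged Tim4KO. The naive and challenged ranges were separate in each genotype, and the challenged Tim4KO libraries lay below the challenged WT libraries. Ldha rose in both (adjusted p = 2.85e-05 in WT and 0.000192 in Tim4KO). Slc16a3 (ENSMUSG00000025161), the lactate exporter MCT4, was at 30.3, 38.5 and 26.7 CPM in naive WT and 143, 142 and 176 CPM in challenged WT. In Tim4KO it went from 32.3, 18.8 and 24.8 CPM to 118, 107 and 115 CPM. Its log2 change was 2.27 ± 0.19 in WT (adjusted p = 1.97e-06) and 2.16 ± 0.19 in Tim4KO (adjusted p = 6.43e-06), within its SE of Pgk1 (2.21) and Slc2a1 (2.19) in WT and of Pgk1 (1.98) in Tim4KO. Without WT ID8 3 the WT values were 2.18 for Slc16a3, 2.23 for Pgk1 and 2.24 for Slc2a1.

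Of the 2 regulators of phosphofructokinase measured, 1 fell. Pfkfb3 makes fructose 2,6-bisphosphate, a strong activator of the enzyme. It was at 44.8, 38.6 and 43.4 CPM in naive WT and 20.5, 26.2 and 15.4 CPM in challenged WT, and at 30.6, 68.3 and 58.3 CPM in naive Tim4KO and 27.4, 22.8 and 26.3 CPM in challenged Tim4KO. Every challenged library lay below every naive library of its genotype, although Tim4KO naive 1 was only slightly above Tim4KO ID8 1. Pfkfb3 fell by 1.04 ± 0.25 on the log2 scale in WT (adjusted p = 0.00764) and by 1.03 ± 0.25 in Tim4KO (adjusted p = 0.0127). The WT call ended with the background covariate (adjusted p = 0.102), and the Tim4KO call ended without Tim4KO naive 2, Tim4KO naive 3 or Tim4KO ID8 2 (adjusted p = 0.0709, 0.0615 and 0.0688). Pfkfb4, a related enzyme, had 0.33 in WT and 0.07 in Tim4KO on the log2 scale and was not called in either. Pfkfb1 and Pfkfb2, which are outside the 35 genes, were not called in either genotype.

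**Figure D2:**
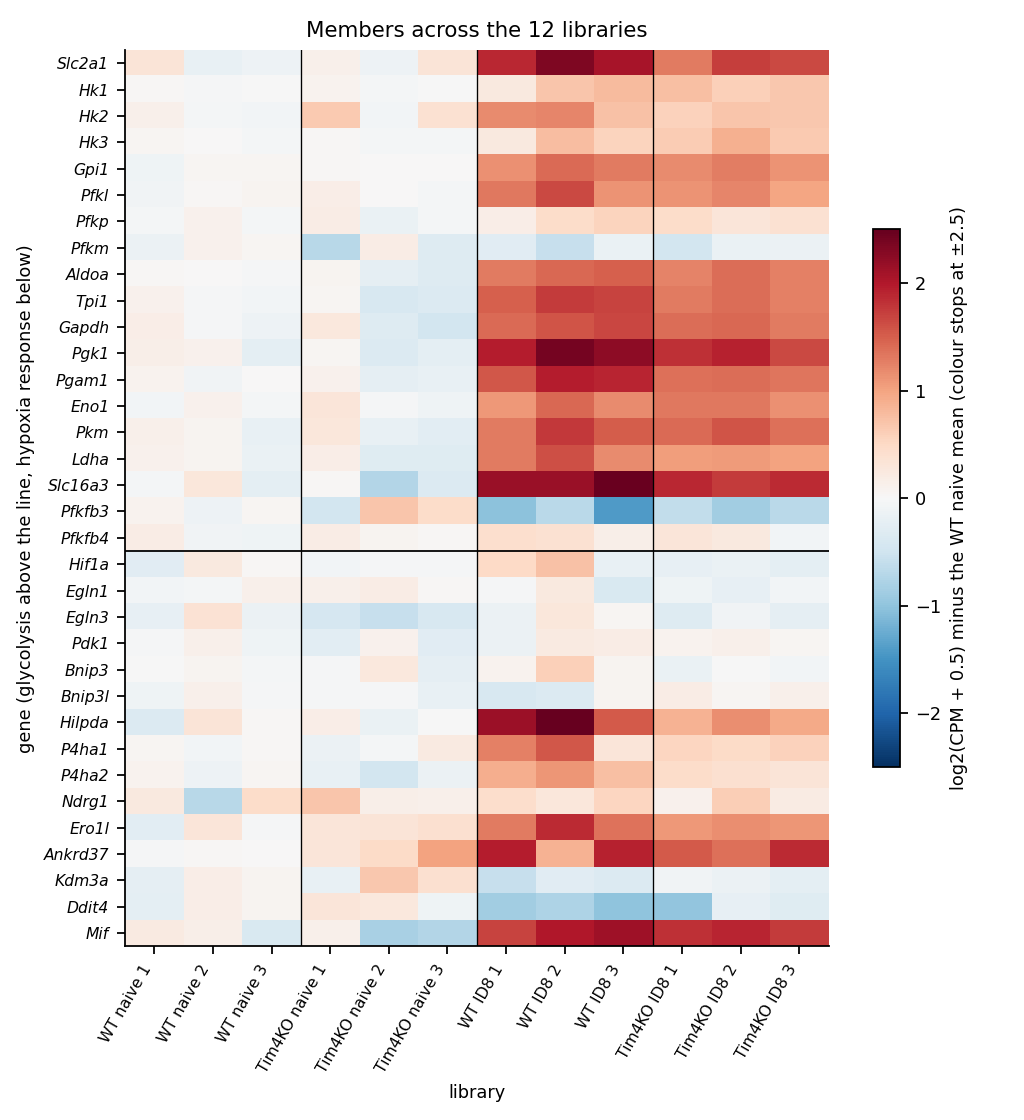
Log2(CPM + 0.5) of each tested member (rows) in each of the 12 libraries (columns), minus the mean of the 3 WT naive libraries; red is higher, blue lower, and the colour stops at ±2.5. The glycolysis block is red in all 6 challenged libraries apart from Pfkm, Pfkfb3 and Pfkfb4, whereas the hypoxia-response block is mixed, and WT ID8 3 is paler than WT ID8 1 and WT ID8 2 for Hilpda, P4ha1 and Hif1a.

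The hypoxia-response genes were more divided. Of 16 genes, 15 passed the filter, and of these 6 rose and 1 fell in WT, while 5 rose and 0 fell in Tim4KO. As a share this was 46.7% in WT and 33.3% in Tim4KO, beside the 31.8% and 16.6% of all tested genes. The median log2 change was 0.38 in WT and 0.23 in Tim4KO. Hilpda, P4ha2, Ero1l, Ankrd37 and Mif rose in both genotypes and P4ha1 and Ddit4 were called in WT alone, while 8 genes were called in neither. Without Tim4KO naive 2, only 3 were called in Tim4KO, with Hilpda at an adjusted p of 0.0556 and Ankrd37 at 0.146. Adm, which encodes the vasodilator peptide adrenomedullin, did not pass the filter, with 0 to 15 counts per library.

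Hif1a itself (ENSMUSG00000021109) was at 104, 150.0 and 130 CPM in naive WT and 180, 211 and 111 CPM in challenged WT. In Tim4KO it was at 122, 125 and 125 CPM in naive and 109, 113 and 107 CPM in challenged libraries. WT ID8 1 and WT ID8 2 lay above all other libraries of the study, and WT ID8 3 lay among the rest. The log2 change was 0.38 ± 0.19 in WT (adjusted p = 0.127) and -0.17 ± 0.19 in Tim4KO (adjusted p = 0.583). Without WT ID8 3 the WT value was 0.63 ± 0.16 with an adjusted p of 0.00325 (edgeR). With all 12 libraries it was also called in WT without a filter on low counts (adjusted p = 0.032) and with the background covariate (adjusted p = 0.0486).

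The enzymes that mark HIF-1 alpha for destruction were not called. Egln1, the main oxygen sensor, had log2 changes of -0.04 ± 0.14 in WT and -0.24 ± 0.14 in Tim4KO, and Egln3, itself a known HIF target, had 0.04 ± 0.17 and 0.27 ± 0.17. Among genes that turn cells away from mitochondrial respiration, Pdk1, which blocks pyruvate dehydrogenase, had 0.10 ± 0.14 and 0.23 ± 0.14. The mitophagy receptors Bnip3 and Bnip3l had 0.28 ± 0.18 and -0.21 ± 0.13 in WT, and -0.09 ± 0.18 and 0.20 ± 0.13 in Tim4KO. None of these 5 reached an adjusted p under 0.2 in either genotype in edgeR. Bnip3l reached 0.0125 in WT with upper-quartile scaling and 0.0265 with the background covariate, as a decrease in both.

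Hilpda (ENSMUSG00000043421), a lipid-droplet protein that inhibits triglyceride breakdown, rose in both genotypes. It was at 9.10, 14.7 and 12.01 CPM in naive WT and 53.3, 73.7 and 34.7 CPM in challenged WT, and at 13.1, 10.4 and 11.6 CPM in naive Tim4KO and 21.9, 26.8 and 23.2 CPM in challenged Tim4KO. Challenged libraries were above naive libraries throughout, and all challenged WT libraries exceeded all challenged Tim4KO libraries, with WT ID8 3 the nearest. The rise was 4.47-fold in WT (log2 2.16 ± 0.24, adjusted p = 3.22e-05) and 2.04-fold in Tim4KO (log2 1.03 ± 0.24, adjusted p = 0.00983).

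The subunits of collagen prolyl 4-hydroxylase, which stabilises collagen, rose in WT. P4ha1 was at 69.8, 64.2 and 69.0 CPM in naive WT and 164, 199 and 83.1 CPM in challenged WT, and at 61.4, 65.0 and 79.6 CPM in naive Tim4KO and 98.8, 94.1 and 101 CPM in challenged Tim4KO. WT ID8 3 was again well below the other challenged WT libraries, and below all challenged Tim4KO libraries. The log2 change was 1.13 ± 0.23 in WT (adjusted p = 0.00264) and 0.51 ± 0.23 in Tim4KO (adjusted p = 0.152). Without WT ID8 3, the Tim4KO value became 0.53 ± 0.14 with an adjusted p of 0.00784, since the spread is shared by all groups. It was also called in Tim4KO without a filter (0.0187), with only the groups compared (0.0147) and with the background covariate (0.0166). P4ha2 was steadier, at 45.8, 39.5 and 44.5 CPM in naive WT, 81.1, 93.1 and 73.1 CPM in challenged WT, 37.9, 31.2 and 39.1 CPM in naive Tim4KO and 59.5, 57.3 and 54.5 CPM in challenged Tim4KO. Its groups were all separate in the 4 comparisons, with log2 changes of 0.93 ± 0.13 in WT and 0.66 ± 0.13 in Tim4KO.

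Ero1l, an oxidase that forms disulphide bonds in the endoplasmic reticulum, was at 23.7, 35.7 and 27.9 CPM in naive WT and 71.8, 106 and 74.8 CPM in challenged WT. In Tim4KO it was at 35.8, 36.1 and 38.0 CPM in naive and 61.6, 65.1 and 62.5 CPM in challenged libraries. The naive Tim4KO libraries lay just above the naive WT libraries and the challenged ones below, neither difference being called, and the rises were 2.88-fold (adjusted p = 2.01e-05) in WT and 1.72-fold (adjusted p = 0.00476) in Tim4KO. Mif, a cytokine that is also a known HIF target, was at 67.2, 63.4 and 44.1 CPM in naive WT and 185, 230 and 252 CPM in challenged WT, and at 62.5, 32.6 and 34.4 CPM in naive Tim4KO and 204, 215 and 193 CPM in challenged Tim4KO. Challenged and naive libraries were far apart in both genotypes, and Mif had the largest log2 change of the 15 tested genes in Tim4KO, 2.24 ± 0.24, beside 1.94 ± 0.23 in WT.

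The other members were low or close to their naive level. Ankrd37, a small ankyrin-repeat protein, was at 0.87 to 0.93 CPM in naive WT and 2.06 to 4.95 CPM in challenged WT, and at 1.23 to 2.31 CPM in naive Tim4KO and 3.14 to 4.61 CPM in challenged Tim4KO. Its rise was called in WT (log2 2.12 ± 0.39, adjusted p = 0.00114), while the call in Tim4KO (1.147 ± 0.37, adjusted p = 0.0461) held in 4 of 12 fits that each left out a library. Part of its exons, 22.7%, overlaps Lrp2bp on the opposite strand, and the strand setting of the counting is not stated. Lrp2bp was at 0.69 to 0.92 CPM in the group means and was not called. A further 3.7% overlaps Ufsp2, also on the opposite strand, which rose from 60.55 to 113.5 CPM in WT (edgeR adjusted p = 0.000222). In Tim4KO, Ufsp2 rose from 68.4 to 104.1 CPM (adjusted p = 0.00681). The part of Ufsp2 reads in the Ankrd37 counts was not tested. Ddit4, an inhibitor of mTORC1, was at 0.97 to 1.47 CPM in naive WT and 0.37 to 0.52 CPM in challenged WT. Its decrease in WT (log2 -1.51 ± 0.54, adjusted p = 0.0452) held in 1 of 12 such fits. Ndrg1, a stress-response gene, stayed between 0.67 and 2.54 CPM in all 12 libraries. Kdm3a, a histone demethylase, had -0.41 ± 0.18 in WT (adjusted p = 0.095) and -0.51 ± 0.18 in Tim4KO (adjusted p = 0.0694). It was called lower in Tim4KO in 5 of 8 other settings that dropped no replicate (adjusted p from 0.0241 to 0.15) and in WT in 3 of 9 (0.0133 to 0.282). Opposite-strand genes also overlap 11.5% of the exons of Gpi1 and 22.3% of those of Bnip3, the latter with 0 counts. Genes on the same strand overlap 15.3% of the exons of Pkm, 10.2% of those of Pfkm and 2.5% of those of Hif1a. The gene over Pkm, Gm49759, had group means of 2.18 to 4.51 CPM and was not called after challenge. The effect of these overlaps on the counts was not tested.

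**Figure D3:**
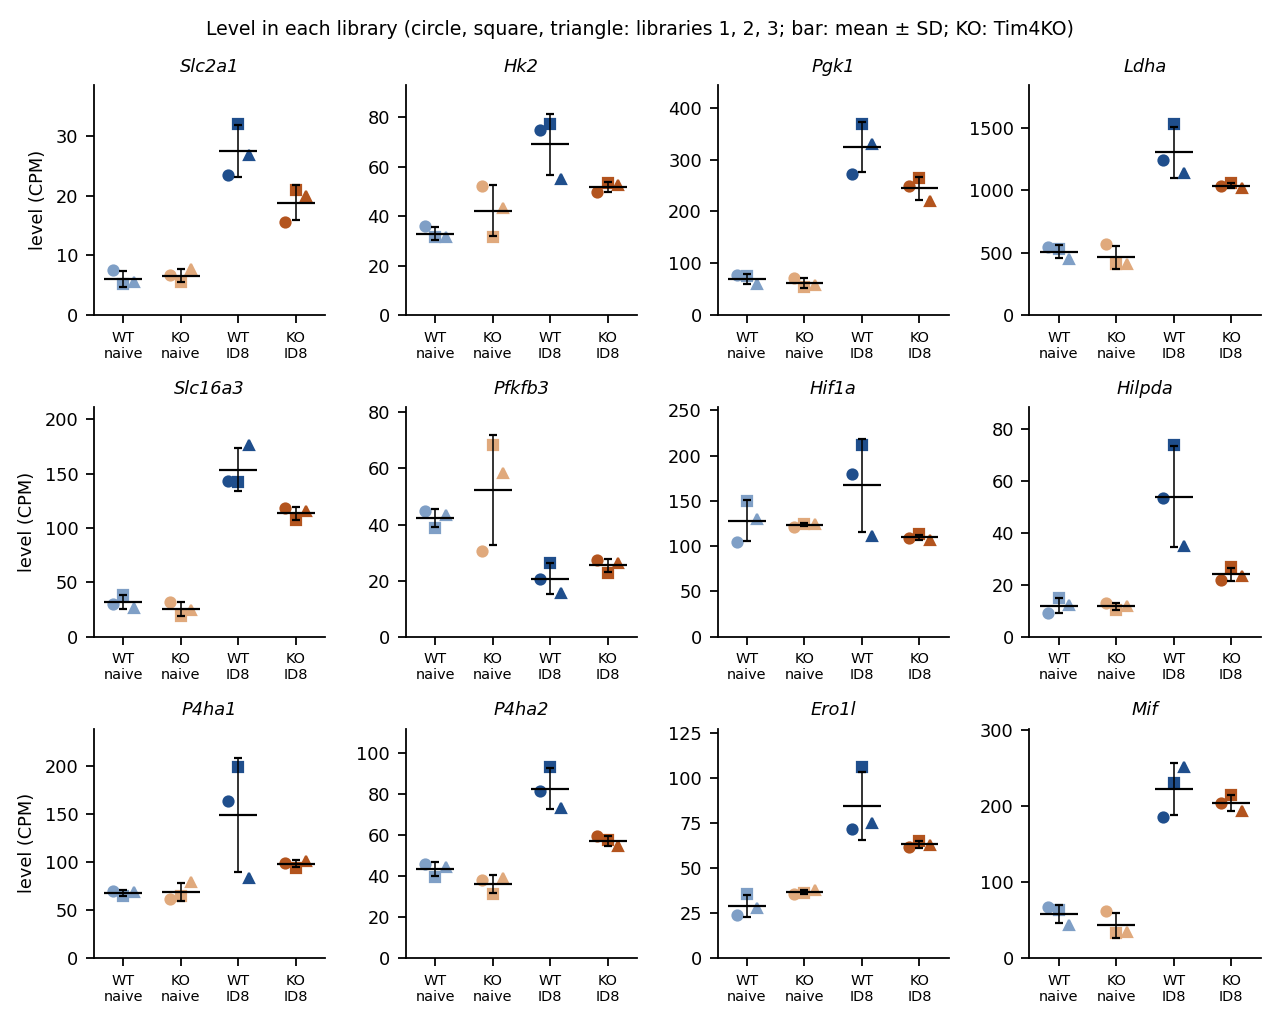
Level in CPM (vertical axes, from 0) of 12 members in each library, by group, with circles, squares and triangles for libraries 1, 2 and 3 and bars for the mean ± SD of 3 libraries. The triangle of WT ID8 lies below the other WT ID8 libraries for Hk2, Ldha, Pfkfb3, Hif1a, Hilpda, P4ha1 and P4ha2. It lies above them for Slc16a3 and Mif, and the Tim4KO ID8 libraries lie close together.

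Within enzyme families the mix of forms shifted with challenge, here compared as shares of the summed CPM per kilobase of exon. The exons of all annotated forms were merged, which gave 13.4 kb for Pfkp, 6.68 kb for Pfkl and 3.34 kb for Pfkm. The size of a share depends on these lengths and is not a share of transcripts. Pfkl made up 78.2% ± 0.92 (SD, n = 3) of the phosphofructokinase sum in naive WT and 89.0% ± 2.6 in challenged WT, and 79.7% ± 1.1 and 87.2% ± 1.2 in Tim4KO. Ldha made up 86.0% ± 2.6 of the Ldha and Ldhb sum in naive WT and 98.4% ± 0.81 in challenged WT, and 84.5% ± 4.2 and 97.1% ± 0.21 in Tim4KO. Ldhb, which favours the return of lactate to pyruvate, fell meanwhile by 1.94 ± 0.25 on the log2 scale in WT and by 1.43 ± 0.24 in Tim4KO. The hexokinase mix moved less: Hk2 held 14.5% ± 0.65 in naive WT, 19.6% ± 4.9 in challenged WT, 17.7% ± 3.1 in naive Tim4KO and 14.0% ± 0.50 in challenged Tim4KO. With its decrease, Pfkfb3 went from 67.3% ± 2.0 to 44.1% ± 4.7 of the Pfkfb3 and Pfkfb4 sum in WT. Across the glycolysis genes, naive WT levels per kilobase ranged from 1.73 for Slc2a1 to 197 for Gapdh, with Gapdh and Eno1 (187) within their spread of each other.

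**Figure D4:**
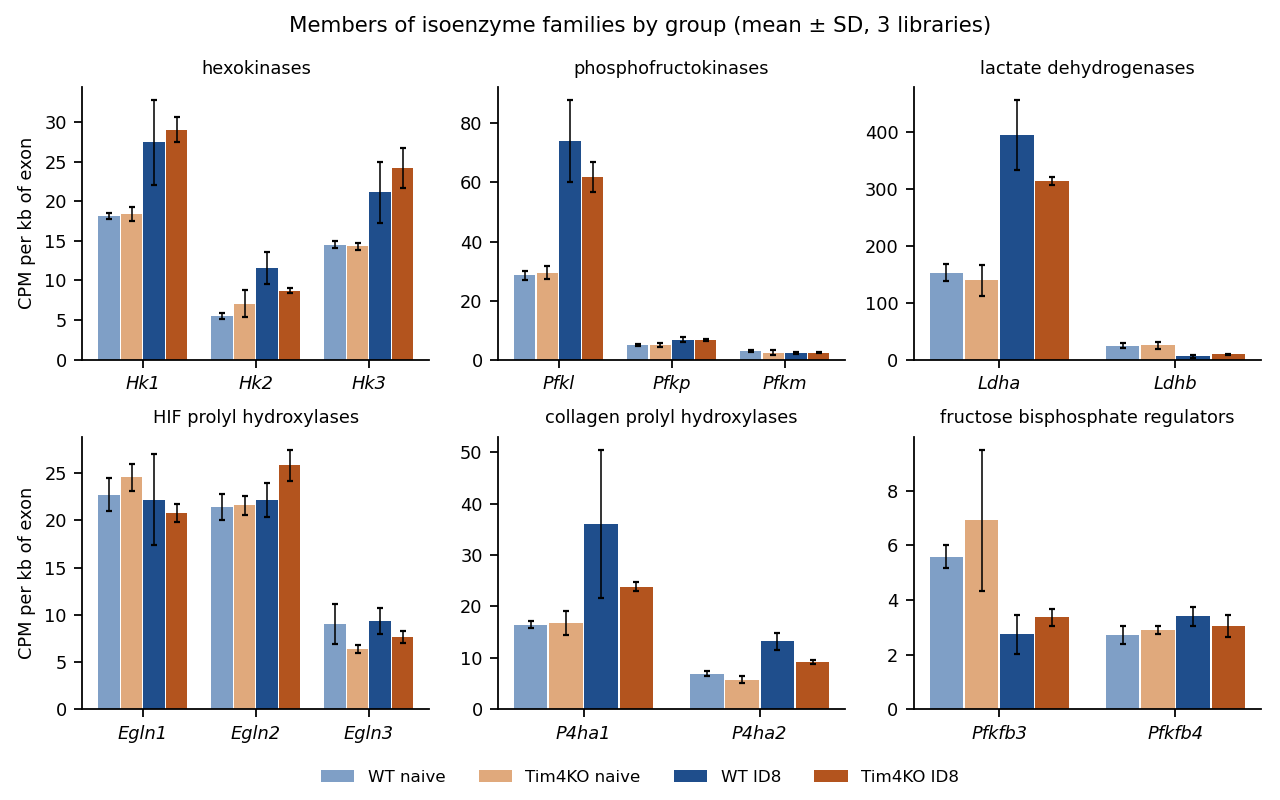
Level per kilobase of exon (vertical axes, CPM per kb, from 0) of the genes of 6 enzyme families in the 4 groups, as mean ± SD of 3 libraries. Pfkl and Ldha carry the rise of their families, Ldhb and Pfkfb3 are lower in the ID8 groups, and Egln1, Egln2 and Egln3 are near their naive levels.

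Between genotypes, no member was called. In naive cells, 0 of 34 tested members were called, where 0.0439% of all tested genes were, and 2 had an unadjusted p under 0.05, as did 6.27% of all genes. Those were Egln3 (24.1 ± 5.7 CPM in WT, 16.97 ± 1.10 CPM in Tim4KO; log2 difference -0.50 with a 95% interval of -0.87 to -0.14) and Ankrd37 (0.903 ± 0.034 and 1.67 ± 0.57 CPM; 0.90, interval 0.04 to 1.77), with edgeR adjusted p of 0.662 and 0.778. The shares of counts in the glycolysis genes, given above, overlapped between naive WT and naive Tim4KO.

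In challenged cells, 0 of 34 members were called, where 0.0565% of all tested genes were. At an unadjusted p under 0.05 there were 13 members, 38.2% of those tested, beside 12.1% of all tested genes. Of the 13, 12 were lower in challenged Tim4KO (6.95% of all tested genes were lower at that threshold): Slc2a1, Hk2, Tpi1, Pgk1, Pgam1, Ldha, Slc16a3, Hif1a, Hilpda, P4ha1, P4ha2 and Ero1l. The 13th, Bnip3l, was higher, at 161, 167 and 221 CPM in challenged WT and 241, 219 and 230 CPM in challenged Tim4KO. Hilpda came nearest to the threshold, with a log2 difference of -1.17 (95% interval -1.66 to -0.67, adjusted p = 0.0839), followed by P4ha2 at -0.53 (interval -0.80 to -0.26, adjusted p = 0.16). For Slc2a1 the difference was -0.54 (interval -0.95 to -0.14), for Pgk1 -0.41 (interval -0.73 to -0.09) and for Slc16a3 -0.44 (interval -0.81 to -0.07). Neutrophil markers summed to 11.6 to 28.3 CPM in challenged WT and 21.1 to 31.1 CPM in challenged Tim4KO, with Ly6g at 0 to 0.231 CPM. Of these markers S100a8 overlapped between challenged genotypes, while Retnlg did not (0.60 to 3.91 CPM in WT, 5.01 to 11.9 CPM in Tim4KO). Mast cell sums were also separate, at 2.30 to 6.10 CPM in challenged WT and 6.22 to 9.53 CPM in challenged Tim4KO. Sums of 6 erythroid markers were lower in Tim4KO, at 0.845 to 1.61 CPM beside 1.80 to 3.19 CPM. The sums of the other listed cell types overlapped. The part of these cells in the genotype differences was not tested.

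Without WT ID8 3, 5 members were called lower in challenged Tim4KO, in a fit that called 5.74% of all tested genes. These were Hilpda (log2 -1.42 ± 0.18, adjusted p = 3.09e-05), P4ha1 (-0.89 ± 0.16, adjusted p = 0.000883), Hif1a (-0.84 ± 0.16, adjusted p = 0.002), P4ha2 (-0.61 ± 0.15, adjusted p = 0.0144) and Hk2 (-0.56 ± 0.16, adjusted p = 0.0389). For each of these 5 genes WT ID8 3 was the lowest WT ID8 library, so leaving it out raises the WT ID8 mean. None of the 5 was called when any other library was left out. WT ID8 3 also had the most counts of all libraries, 23170244, and the fewest background reads. With all 12 libraries, 3 other settings that called more of all genes also called members lower in challenged Tim4KO. Without a filter on low counts, which called 0.52% of all tested genes, these were Hilpda (adjusted p = 4.47e-07), Hif1a (0.0166) and P4ha1 (0.0265). DESeq2, which called 1.63%, gave Hilpda (0.00048) and P4ha2 (0.0156). With the background covariate, which called 1.11%, Hilpda alone was called (0.0114).

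The interaction asked whether the challenge response differed between genotypes. No member was called, and neither was any other gene, so the share was 0% of all tested genes. At an unadjusted p under 0.05, 7.44% of all tested genes and 5 of 34 members passed, of which 4 had the smaller response in Tim4KO, as had 4.36% of all tested genes. The difference of log2 changes, Tim4KO minus WT, was -1.14 for Hilpda (95% interval -1.85 to -0.42), -0.78 for Hk2 (interval -1.29 to -0.26), -0.74 for Ero1l (interval -1.24 to -0.25) and -0.69 for Slc2a1 (interval -1.29 to -0.09). For Bnip3l it was 0.41 (interval 0.01 to 0.81). The adjusted p was 0.668 for all 5 in edgeR. Without WT ID8 3, 3 members were called, Hilpda (adjusted p = 0.00526), P4ha1 (0.0182) and Hk2 (0.0215), with 2.12% of all tested genes. These 3 were again lowest in WT ID8 3 among the WT ID8 libraries. For Gapdh, Pkm and Aldoa the estimates were near 0, with intervals that still allow a difference either way: Gapdh was at -0.03 (interval -0.54 to 0.48), Pkm at -0.04 (interval -0.53 to 0.45) and Aldoa at 0.04 (interval -0.34 to 0.41).

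The rest of the pathway was covered by 80 further genes, of which 67 passed the filter. In WT 27 rose and 5 fell, and in Tim4KO 20 rose and 3 fell, which is 47.8% and 34.3% of those tested, beside 31.8% and 16.6% of all tested genes. The smaller lists that follow are read against the same shares. Of 15 tested genes for other glycolytic forms and transporters, 5 rose and 1 fell in WT (40.0%) and 3 rose and 1 fell in Tim4KO (26.7%), with Aldoc at 0.970 ± 0.31 CPM in naive WT and 5.88 ± 3.7 CPM in challenged WT (log2 2.59 ± 0.42). Slc16a1, the lactate transporter MCT1, rose in WT (log2 1.07 ± 0.19) and had 0.55 ± 0.19 in Tim4KO with an adjusted p of 0.0589. In the pentose phosphate pathway, which branches from glycolysis and supplies NADPH, 4 of 7 genes (57.1%) rose in both genotypes: G6pdx, Pgd, Tkt and Taldo1. Pgd, for example, went from 141, 157 and 154 CPM to 283, 302 and 270.0 CPM in WT.

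At the step from pyruvate into mitochondria, 3 of 9 genes rose and 1 fell in WT (44.4%), and 2 rose in Tim4KO (22.2%, near the 16.6% of all tested genes). Pdk3, a pyruvate dehydrogenase kinase, rose by log2 0.77 ± 0.17 in WT and 1.03 ± 0.17 in Tim4KO. Pdk2 fell by 0.78 ± 0.19 in WT (adjusted p = 0.00578) and was at -0.02 ± 0.18 in Tim4KO. Of 9 tested genes of the HIF machinery, 5 rose in WT (55.6%) and 2 in Tim4KO (22.2%, again near the share of all tested genes). Those in WT were Epas1, Cul2, Elob, Eloc and Rbx1, and those in Tim4KO were Elob and Rbx1. Arnt, Vhl, Egln2 and Hif1an were called in neither. Epas1, which encodes HIF-2 alpha, was at 34.2, 47.5 and 62.6 CPM in naive WT and 90.5, 73.5 and 96.3 CPM in challenged WT, and at 35.02, 55.3 and 47.7 CPM in naive Tim4KO and 48.3, 45.7 and 52.6 CPM in challenged Tim4KO. The WT groups were separate and the Tim4KO groups overlapped, with log2 changes of 0.85 ± 0.20 (adjusted p = 0.00607) and 0.09 ± 0.20 (adjusted p = 0.795). The genotype difference in challenged cells was not called for Epas1 (edgeR adjusted p = 0.161) or Pdk2 (0.245). The interaction was not called for either gene (adjusted p = 0.668 for each). Of 27 further HIF targets, 10 rose and 3 fell in WT (48.1%) and 9 rose and 2 fell in Tim4KO (40.7%). Car12, a membrane carbonic anhydrase, rose by log2 3.26 ± 0.33 and 3.35 ± 0.33, and Tfrc, the transferrin receptor, by 3.72 ± 0.41 and 2.98 ± 0.40.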

How the data were processed

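RNA-seq libraries of sorted large peritoneal macrophages, 12 in all, were prepared with Takara's SMART-Seq kit for mRNA, per the labels' protocols. The authors deposited 1 table of raw read counts per Ensembl gene. That these are counts was taken from the values: all are whole, and library totals differ. The submitters' processing notes name FastQC, STAR 2.5, mm10 and GRCm39 without roles. The counting program, annotation and strand setting are not given in the sources used here, so gene coordinates are not printed. Promoter windows are RefSeq's, in GRCm38.p6. Of 57010 rows, 52081 had a GENCODE vM21 name.

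Counts were normalised with TMM and tested in edgeR 4.0.16 (R 4.3.3): filterByExpr left 15943 genes, and 1 robust quasi-likelihood fit with 4 group means used all 12 libraries (8 residual degrees of freedom). There were 5 comparisons: ID8 against naive in each genotype, Tim4KO against WT in each condition, and the interaction. Tests were two-sided, and calls needed an adjusted p (Benjamini-Hochberg, all tested genes) under 0.05. CPM values are divided by TMM-scaled library totals, and levels per kilobase use merged GENCODE vM21 exons. The SE of a log2 change was derived from it and its F value, and 95% intervals use the fit's total degrees of freedom. Depth floors (3 counts) cover counting error only. The method was run on simulated counts, with spreads estimated from these data and changes placed in WT ID8 alone. The simulation held no differences in background reads and no library set apart, so it cannot judge results that depend on these.

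The members and lists were chosen with earlier results of these data known. Values per library are given for Hif1a, for called members, mainly those of largest change, and for members with an unadjusted p under 0.05 in a genotype comparison or the interaction. Others are summarised. Of the pathway lists, called genes among the 3 largest changes per list may be named; Epas1, Pdk2, Pdk3, Slc16a1, Ldhb and other genes outside these rules were chosen after their values were seen. Alternatives were RLE or upper-quartile scaling, no filter, DESeq2 1.42.0, limma 3.58.1 (voom), only the groups compared, a replicate block, the log2 background reads (1947 receptor genes with a mean of at most 1 CPM) as a covariate, and each library left out. Named pseudogene copies of 7 members held 612 counts beside 591959 in the genes. One further gene is not reported here.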

Additional observations from a re-analysis of the deposited data

How the results depend on the processing

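Of 1421 alternative values over 70 gene results, 1336 kept their direction and side of the threshold, 52 lost the call, 33 gained it and 0 reversed. Upper-quartile scaling moved the median of all genes by -0.24 in WT, -0.12 in Tim4KO and 0.12 in the interaction on the log2 scale. Called members in the genotype comparison of challenged cells numbered 0 in the fit reported, 3 without a filter on low counts, 2 with DESeq2, 1 with the background covariate and 0 to 5 when each library was left out. The calls over all genes were 9, 264, 217, 177 and 1 to 997 in the same order. In the interaction the count was 0, with 1 without a filter (73 over all genes) and 0 to 3 when each library was left out. For hypoxia-response genes after challenge in Tim4KO, leaving out each library gave 3 to 6. Samples of equal number did not deviate together over the whole study (18 pairs, r from -0.50 to 0.42, 5 over 0.1). The 3 such pairs of WT naive and WT ID8 had 0.10 to 0.42. Samples of unequal number reached 0.46 (WT naive 2 with Tim4KO ID8 1). WT naive 2 had 0.23 with WT ID8 3 beside 0.10 with WT ID8 2. With a replicate block, the counts of called members were 17 glycolysis and 6 hypoxia-response genes in WT and 15 and 5 in Tim4KO. A block within the 6 WT libraries, chosen after seeing the data, gave 14 and 7. Members at a few CPM or less (Adm, Ndrg1, Ddit4 and Ankrd37) are limited by depth. The cause of these shifts was not tested.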

Other observations

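The WT ID8 libraries did not keep the same order across members. The counts that follow were not made over all tested genes, so whether these members differ from other genes in this was not tested. WT ID8 3 was the lowest of the 3 for 7 of 15 tested hypoxia-response genes (Hif1a, Egln1, Bnip3, Hilpda, P4ha1, P4ha2 and Ddit4) and for 5 of 19 glycolysis genes (Hk2, Pfkl, Ldha, Pfkfb3 and Pfkfb4), whereas WT ID8 1 was the lowest for 12 glycolysis genes. WT ID8 2 was the highest for 12 glycolysis and 11 hypoxia-response genes. The level in WT ID8 3 was nearer to the Tim4KO ID8 mean than to the mean of the other WT ID8 libraries for 9 of 15 hypoxia-response and 8 of 19 glycolysis genes. Vegfa and Tfrc, which are outside the 35 genes, were also lowest in WT ID8 3 among the WT ID8 libraries, Tfrc at 38.8 CPM against 114 and 135 CPM and Vegfa at 3.24 CPM against 6.22 and 5.59 CPM. Both genes were picked after their values were seen.

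Aldoa had a second row in the table, with 44 counts over all libraries beside 115123 in the row used.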
